A study of Rattus norvegicus with 4 samples.

Results

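This report describes 34 rat genes of glycolysis, lactate handling and the hypoxia response, grouped by their known roles. They were looked up by gene symbol in a table of RNA-seq counts for 17949 genes, and 33 of them have a row. Counts of Egln1, a prolyl hydroxylase that marks the hypoxia factor for breakdown, were not analysed here. The counts come from primary rat Schwann cells (SCs) of the sciatic nerve, the glia that myelinate peripheral axons, collected 48 h after lentiviral infection. The Lenti-AS group (n = 2) received a virus that overexpresses Egr2-AS-RNA, an antisense RNA to the Egr2 promoter, and the Lenti-GFP group (n = 2) received the backbone virus carrying GFP. The antisense vector carries a red fluorescent reporter in place of GFP, so the reporter and the antisense RNA cannot be told apart as the difference between the groups. Both groups grew in DMEM with FBS at 10%, heregulin-β1 at 5 ng/ml and forskolin, an activator of adenylyl cyclase, at 4 μM. The labels call the samples biological replicates but name no animals or culture days, so the p-values measure the spread between these samples. The comparison asks which of these genes changed when the antisense RNA was overexpressed.

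Glycolysis turns glucose into pyruvate. Pyruvate is then either reduced to lactate and exported or burned in the mitochondria, and pyruvate dehydrogenase controls the second route. When oxygen is low, the factor HIF-1 raises most glycolytic genes, the lactate dehydrogenase Ldha and the kinases that shut off pyruvate dehydrogenase. Lactate that SCs pass to axons through monocarboxylate transporters is regarded as a fuel for the axon.

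Total counts lay between 74024323 and 96185890 per sample, and the members took 0.325% and 0.328% of them in Lenti-GFP and 0.338% and 0.334% in the Lenti-AS samples. CPM below is the count of a gene scaled to a common library size with TMM factors. Egr2 itself, whose promoter the antisense RNA matches, had 49.2 and 42.1 CPM in Lenti-GFP and 61.2 and 54.0 CPM in Lenti-AS (log2 fold change 0.33, unadjusted p = 0.0194, edgeR adjusted p = 0.152), so it was not called and its values were not lower in Lenti-AS. The SC markers were present in every sample, with 7060 to 8330 CPM summed over 8 genes in Lenti-AS and 6490 to 6530 CPM in Lenti-GFP. That sum moved with the groups, and its part in the results was not tested. Of the 27 marker genes tested over all cell types edgeR called 0. At an unadjusted p under 0.05 edgeR had 8 higher and 3 lower, where 12.5% and 9.37% of all genes tested met that limit. The SC markers made up 5 of those higher and 1 of those lower. DESeq2 called 2 higher, the globins Hba-a1 and Hbb, and 2 lower, Col3a1 and Tek, beside 4.86% and 1.39% of all genes. Among the fibroblast markers, Pdgfra lay at 3.09 to 4.07 CPM and Dcn, Lum and Thy1 were near 0, while the collagens Col1a1 and Col3a1 were abundant. Macrophage markers summed to at most 4.46 CPM and skeletal muscle markers to at most 5.40 CPM. Endothelial markers summed to 15.1 to 20.6 CPM, of which Tek alone had 14.7 to 20.2 CPM. Mural cell markers summed to 232 to 288 CPM, of which Pdgfrb alone had 225 to 279 CPM. Lenti-AS 2 stood apart by its erythroid markers, nearly all globin, which summed to 1980 CPM against 2.91 to 5.29 CPM in the other samples. Values without that library, or the range over leaving out each sample in turn, are therefore given beside the results that rest on it. In bulk samples, fewer cells of a type and less RNA per cell cannot be told apart.

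Most glycolytic, lactate and hypoxia genes differed little between Lenti-AS and Lenti-GFP. The clearest differences were in 3 regulators, Pdk4, Pfkfb3 and Egln3, of which Pdk4 alone passed the test of edgeR. All 33 members with a row passed the filter of at least 10 counts in at least 2 samples. A gene was called where its adjusted p (Benjamini-Hochberg, all 12446 genes tested) was under 0.05 and its fold change reached 1.3, with the quasi-likelihood test of edgeR. P-values below are from that test unless another is named. In the Lenti-AS samples, 1 of the 33 members was called higher and 0 were called lower, where 1.31% and 0.667% of all genes tested were called. The called gene was Pdk4, a kinase that inhibits pyruvate dehydrogenase. DESeq2 called 2 members higher, Pdk4 and Pfkfb3, and 0 lower, beside 4.86% and 1.39% of all genes. At an unadjusted p under 0.05, edgeR had 3 members higher (Pdk4, Pfkfb3 and Slc16a1) and 1 lower (Egln3), where 12.5% and 9.37% of all genes met that limit in each direction.

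The fitted log2 fold changes of the members ran from -0.67 to 0.67 with a median of 0.05, and the median over all genes tested was 0.0071. In 28 of the 33 members the log2 fold change was under 0.3 in size. The 5 others were Pdk4, Pfkfb3, Egln3, Slc16a3 and Adm, and Egln3, Slc16a3 and Adm are among the members with the fewest counts. For 21 of the 33 members the 95% interval of the difference lay wholly within 1.3-fold in either direction, which held for 44.4% of all genes tested, among them many with fewer counts. Both Lenti-AS samples lay above both Lenti-GFP samples for 11 members and below them for 5, and 27.7% and 27.2% of all genes tested were separated in that way.

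**Figure D1:**
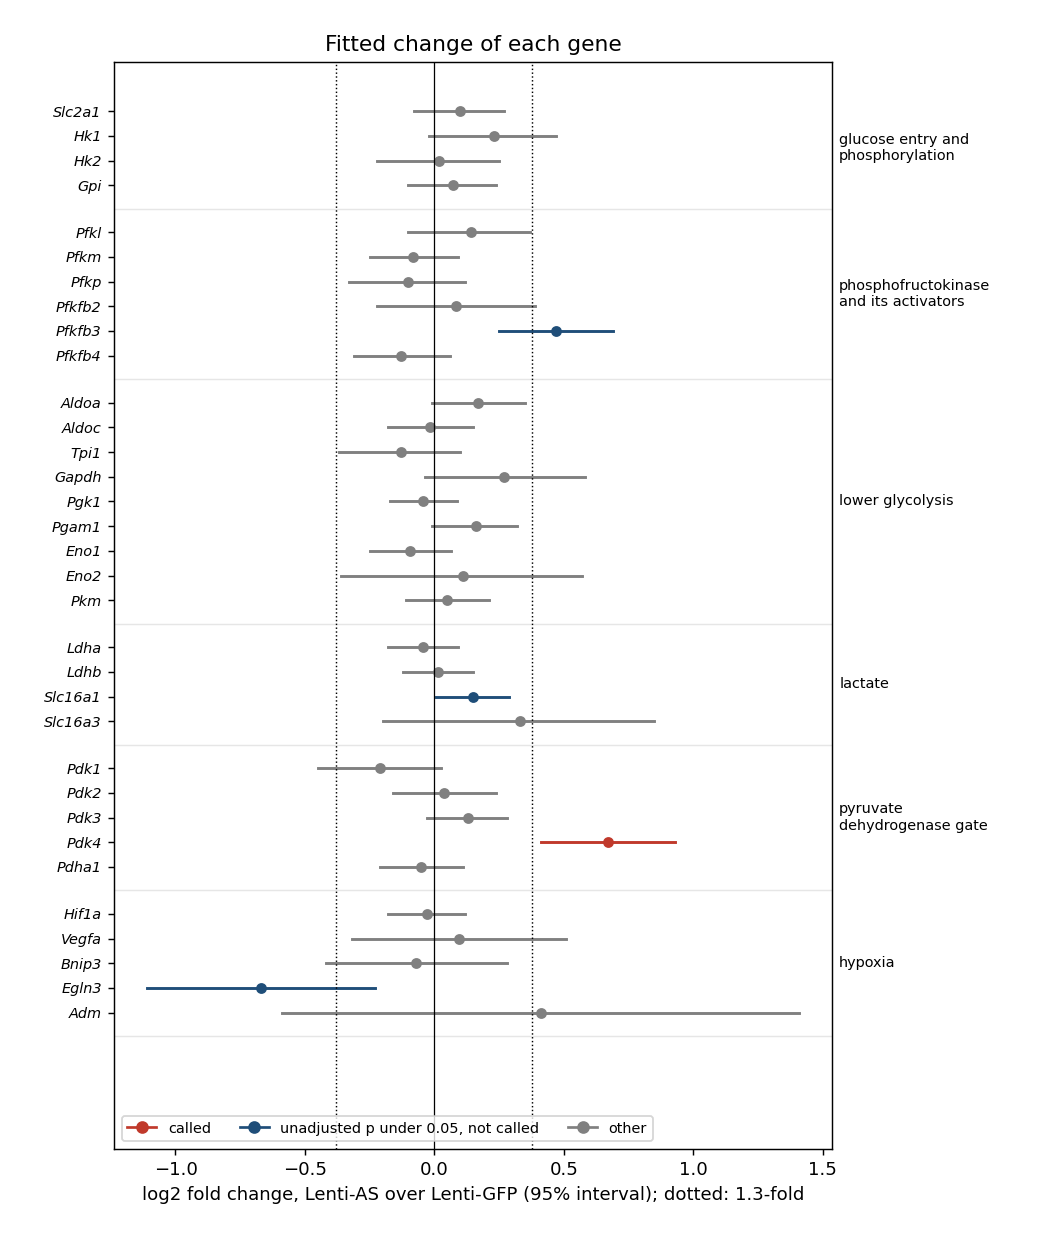
Fitted log2 fold change of each of the 33 members, Lenti-AS over Lenti-GFP, with its 95% interval, grouped by role; dotted lines mark 1.3-fold. Pdk4 (0.67) and Pfkfb3 (0.47) lie to the right, Egln3 (-0.67) to the left, and most enzymes of the pathway sit close to 0.

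The pyruvate dehydrogenase gate held the member with the clearest change. Pdk4 had 6.64 and 6.66 CPM in Lenti-GFP and 10.8 and 10.3 CPM in Lenti-AS. The groups did not overlap, and the 3.67 CPM between their nearest samples was larger than the difference within either group. Pdk4 rose from 6.65 ± 0.0111 CPM (SD, n = 2) to 10.6 ± 0.357 CPM (SD, n = 2), a fold change of 1.59 (log2 scale 0.67 ± 0.106 SE, edgeR adjusted p = 0.0451). The call lay close to the threshold. With Lenti-GFP 1 or Lenti-GFP 2 left out, 0 genes of the whole table were called higher, Pdk4 included, while its log2 fold change stayed between 0.63 and 0.70 whichever sample was left out.

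The other kinases of the gate did not pass the test. Pdk1, a classical HIF-1 target, had 18.6 and 20.5 CPM in Lenti-GFP and 15.8 and 17.9 CPM in Lenti-AS. Its log2 fold change was -0.21, with a 95% interval from -0.45 to 0.024, so its values went in the opposite direction to those of Pdk4 (edgeR adjusted p = 0.263). Pdk3 had 24.9 and 25.8 CPM in Lenti-GFP and 27.2 and 28.1 CPM in Lenti-AS, with a log2 fold change of 0.13 (95% interval -0.029 to 0.28). The nearest samples of its groups were 1.49 CPM apart, more than the difference within either group. Pdk2 lay between 22.0 and 24.7 CPM in all 4 samples. Pdha1, which encodes the E1 alpha subunit of pyruvate dehydrogenase that these kinases phosphorylate, had 150 and 154 CPM in Lenti-GFP and 154 and 139 CPM in Lenti-AS (log2 fold change -0.052, 95% interval -0.21 to 0.11).

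Phosphofructokinase commits sugar to glycolysis, and the Pfkfb enzymes make and remove its activator fructose 2,6-bisphosphate. Pfkfb3, the member of that family with the highest ratio of kinase to phosphatase activity, had 13.8 and 12.4 CPM in Lenti-GFP and 18.0 and 18.2 CPM in Lenti-AS. The groups were apart by 4.14 CPM, against 1.04 CPM (SD, n = 2) within Lenti-GFP and 0.181 CPM (SD, n = 2) within Lenti-AS. The fold change was 1.38 (log2 scale 0.47 ± 0.0902 SE, unadjusted p = 0.00212, edgeR adjusted p = 0.0645), which missed the threshold, while DESeq2 gave an adjusted p = 0.00331. Over the other planned scalings, filters and tests without a replicate term the adjusted p from edgeR, limma-voom and DESeq2 lay between 0.00331 and 0.0761. Without Lenti-AS 2 the log2 fold change was 0.46 and without Lenti-AS 1 it was 0.48, and edgeR called the gene in both fits, beside 10.2% and 4.58% of all genes higher. Without Lenti-GFP 1 or without Lenti-GFP 2 it was not called, with log2 fold changes of 0.55 and 0.39.

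Its relatives and the phosphofructokinases themselves did not pass the test. Pfkfb4 had 31.2 and 31.0 CPM in Lenti-GFP and 27.0 and 30.0 CPM in Lenti-AS, and Pfkfb2 lay between 10.5 and 12.9 CPM with overlapping groups. Of the subunits of the enzyme, Pfkm, the muscle form, had 61.0 and 61.3 CPM in Lenti-GFP and 55.8 and 59.7 CPM in Lenti-AS. Pfkl, the liver form, had 40.1 CPM in Lenti-AS 1 and 32.7 to 34.7 CPM in the other samples, so that 1 library alone was high. Pfkp, the platelet form, lay between 17.5 and 20.6 CPM. The log2 fold changes of these 5 genes were between -0.13 and 0.14.

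Egln3 was the third of the regulators named above, with lower values in Lenti-AS. It encodes an oxygen-dependent prolyl hydroxylase that acts on HIF and is itself a HIF target. It lay at 2.84 and 2.67 CPM in Lenti-GFP, from 265 and 253 counts, and at 1.78 and 1.68 CPM in Lenti-AS, from 156 and 126 counts. Both Lenti-AS samples were lower by more than the difference within either group. The log2 fold change was -0.67 (standard error 0.180, 95% interval -1.11 to -0.23, unadjusted p = 0.00996, edgeR adjusted p = 0.118), so the gene was not called, and DESeq2 gave an adjusted p = 0.0803. Leaving out one sample at a time gave log2 fold changes of -0.72 to -0.62. Without Lenti-AS 1 or without Lenti-AS 2 edgeR called it lower, beside 2.18% and 2.03% of all genes called lower in those fits, and without Lenti-GFP 1 or without Lenti-GFP 2 it was not called.

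**Figure D2:**
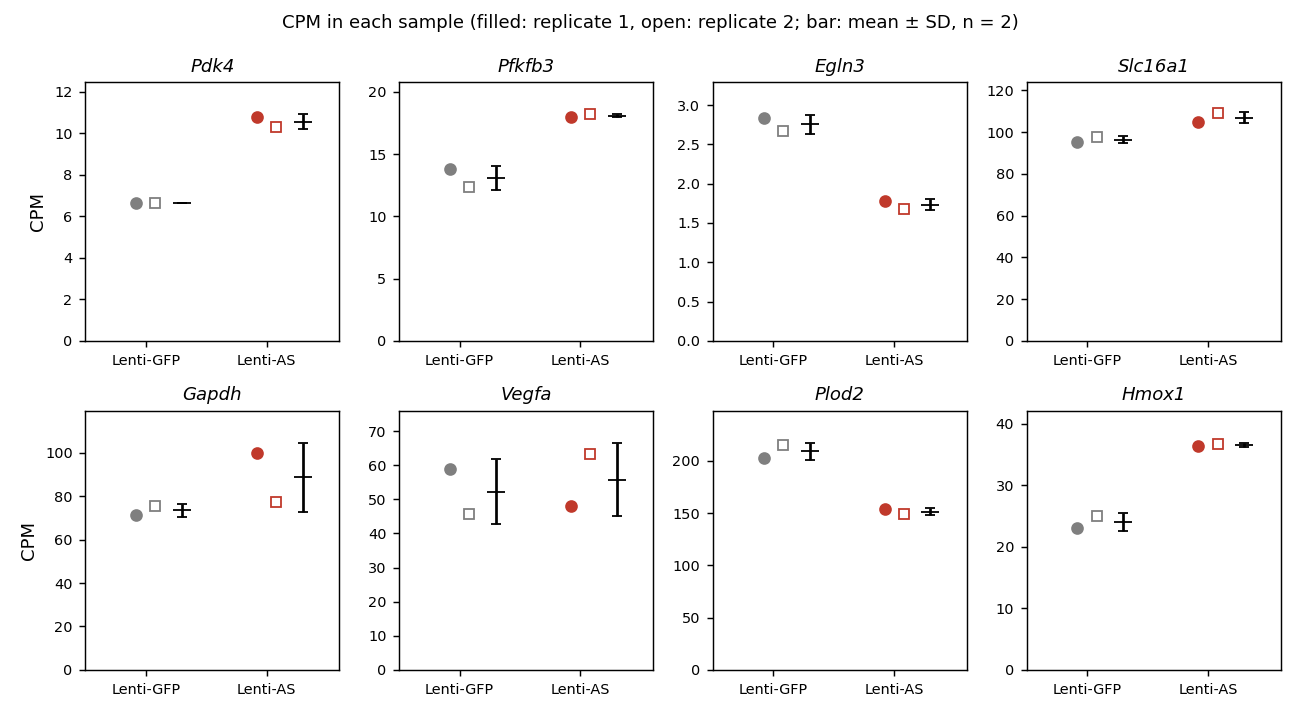
CPM of 6 members and of Plod2 and Hmox1 in each sample (filled, replicate 1; open, replicate 2), with the mean ± SD (n = 2) beside the points; each axis starts at 0. Pdk4, Pfkfb3, Egln3, Slc16a1, Plod2 and Hmox1 are separated between the groups with close replicates, whereas the Lenti-AS samples of Gapdh (100 and 77.3 CPM) and both groups of Vegfa are spread.

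The sequences upstream of these 3 genes are shown because HIF-1 acts through a short DNA core, and Ldha, a HIF target whose level was steady, is shown for contrast. Each line gives the 250 bases before the annotated start on the strand of the gene, from RefSeq in the GRCr8 build, in which the core letters ACGTG or GCGTG on either strand are in capitals. These letters overlap the E-box CACGTG, which holds the core on both strands.
Pdk4 (GRCr8 chr4:34568330-34568579, minus strand): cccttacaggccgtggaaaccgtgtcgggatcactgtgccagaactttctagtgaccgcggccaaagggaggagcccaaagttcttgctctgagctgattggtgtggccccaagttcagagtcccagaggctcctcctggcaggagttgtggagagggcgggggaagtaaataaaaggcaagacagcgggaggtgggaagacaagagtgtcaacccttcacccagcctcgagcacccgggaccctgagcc
Pfkfb3 (GRCr8 chr17:71944683-71944932, plus strand): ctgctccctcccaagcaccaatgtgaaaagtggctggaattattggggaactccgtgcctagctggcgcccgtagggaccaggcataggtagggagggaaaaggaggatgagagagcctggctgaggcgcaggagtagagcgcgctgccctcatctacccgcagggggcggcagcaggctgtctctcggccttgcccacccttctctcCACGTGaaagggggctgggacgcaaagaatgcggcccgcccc
Egln3 (GRCr8 chr6:77411016-77411265, minus strand): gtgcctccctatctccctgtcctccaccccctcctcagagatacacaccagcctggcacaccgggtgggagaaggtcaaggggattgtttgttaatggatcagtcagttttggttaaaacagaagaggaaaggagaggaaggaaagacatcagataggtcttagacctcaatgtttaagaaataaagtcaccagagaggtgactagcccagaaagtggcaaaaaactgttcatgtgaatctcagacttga
Ldha (GRCr8 chr1:106507842-106508091, plus strand): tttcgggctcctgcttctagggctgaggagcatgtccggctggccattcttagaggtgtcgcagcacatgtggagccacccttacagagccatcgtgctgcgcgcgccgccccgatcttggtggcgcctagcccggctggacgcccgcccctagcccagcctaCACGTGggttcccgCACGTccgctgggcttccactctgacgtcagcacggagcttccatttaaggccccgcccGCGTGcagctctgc
Pfkfb3 held 2 matches, which form a single CACGTG that begins 42 bases before the start. Ldha held 4 matches, of which 2 form a CACGTG that begins 87 bases before the start, and Pdk4 and Egln3 held 0 in this window. Of the 33 members with a promoter entry, Egln1 included and Pgk1 not, 20 held the core (60.6%), where 37.9% of the 27457 RefSeq promoters did. The median GC content of these windows was 62.0% for the members and 52.0% for all promoters. A match is a run of letters and not a shown binding site, and the files analysed here hold no measure of binding.

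Glucose entry and its first steps differed by less than 1.3-fold in fitted level. Slc2a1, the glucose transporter GLUT1, had 30.7 and 30.1 CPM in Lenti-GFP and 31.1 and 33.9 CPM in Lenti-AS. The groups were only 0.359 CPM apart, and the log2 fold change was 0.10 (95% interval -0.080 to 0.27, edgeR adjusted p = 0.468). Without Lenti-AS 2 it was 0.032. Hk1, the constitutive hexokinase, had 26.1 CPM in both Lenti-GFP samples and 33.4 and 27.6 CPM in Lenti-AS, with a log2 fold change of 0.23 (95% interval -0.020 to 0.47). Leaving out Lenti-AS 1 lowered that value to 0.081, so it rested largely on 1 library. Hk2, the hexokinase that HIF-1 and insulin induce, had 34.1 and 37.4 CPM in Lenti-GFP and 33.5 and 38.8 CPM in Lenti-AS, and the groups overlapped. Gpi, which turns glucose 6-phosphate into fructose 6-phosphate, lay at 168 and 166 CPM in Lenti-GFP and at 166 and 186 CPM in Lenti-AS. The log2 fold change of Gpi was 0.071, and it ran from -0.013 to 0.15 with one sample left out.

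The 9 enzymes of lower glycolysis, from aldolase to pyruvate kinase, had log2 fold changes between -0.13 and 0.27, and edgeR and DESeq2 called 0, with 0 at an unadjusted p under 0.05 in edgeR. Gapdh, whose transcript was also the reference of the qPCR in the study, had 71.4 and 75.7 CPM in Lenti-GFP and 100 and 77.3 CPM in Lenti-AS. The groups did not overlap, but the nearest pair was only 1.63 CPM apart and Lenti-AS 1 stood well above the rest. The log2 fold change of Gapdh was 0.27 (standard error 0.125, 95% interval -0.038 to 0.58, edgeR adjusted p = 0.273). It was 0.44 without Lenti-AS 2, a fit in which edgeR called Gapdh and 10.2% of all genes higher, and 0.072 without Lenti-AS 1.

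In Aldoa and Pgam1, as in Gapdh, Lenti-AS 1 was the highest sample and Lenti-AS 2 the next. Aldoa, the main aldolase, had 156 and 157 CPM in Lenti-GFP and 187 and 165 CPM in Lenti-AS, and the phosphoglycerate mutase Pgam1 had 107 and 105 CPM against 124 and 113 CPM. Their log2 fold changes were 0.17 and 0.16, and neither passed the test (edgeR adjusted p = 0.244 and 0.247). Without Lenti-AS 1 they were 0.075 and 0.086. The other enzymes did not follow. Eno1, the ubiquitous enolase, had 120 and 126 CPM in Lenti-GFP and 120 and 111 CPM in Lenti-AS, and Pgk1, phosphoglycerate kinase, lay between 263 and 281 CPM in all 4 samples (log2 fold change -0.042, 95% interval -0.17 to 0.089). Pkm, pyruvate kinase, lay between 117 and 129 CPM and Aldoc, the aldolase typical of the nervous system, between 60.9 and 62.4 CPM. The neuronal enolase Eno2 was counted at 3.99 to 5.37 CPM with overlapping groups.

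Tpi1, triosephosphate isomerase, has a second row in the table under a suffixed name, and reads can be split between the copies. The first row had 42.3 and 49.6 CPM in Lenti-GFP and 43.4 and 40.4 CPM in Lenti-AS, and the second 17.2 and 19.8 CPM against 17.4 and 15.2 CPM. Summed, they came to 59.4 and 69.4 CPM in Lenti-GFP and 60.8 and 55.6 CPM in Lenti-AS, and the groups overlapped. Several of these enzymes, Gapdh above all, have processed pseudogenes in rodents, and the handling of reads with several matches is not given in the sources used here, so their levels may leave such reads out.

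The lactate dehydrogenase genes Ldha and Ldhb were close to level. Ldha, the lactate dehydrogenase subunit that favours lactate, was the glycolytic member with the most counts, between 64654 and 87342 per sample. It had 902 and 921 CPM in Lenti-GFP and 910 and 860 CPM in Lenti-AS, and the groups overlapped. Its log2 fold change was -0.043 with a 95% interval from -0.18 to 0.093 (edgeR adjusted p = 0.686). Ldhb, the subunit that favours pyruvate, lay between 149 and 158 CPM with overlapping groups (log2 fold change 0.015, 95% interval -0.12 to 0.15).

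Neither of the transporters that carry lactate among the members passed the test. Slc16a1, which encodes MCT1, the main lactate transporter of SCs, had 95.2 and 97.5 CPM in Lenti-GFP and 105 and 109 CPM in Lenti-AS. The 7.28 CPM between the nearest samples was larger than the difference within either group. The fold change was nonetheless only 1.11 (log2 scale 0.15 ± 0.0582 SE, unadjusted p = 0.0448, edgeR adjusted p = 0.220), and the gene was not called. Slc16a3, which encodes MCT4, the exporter of highly glycolytic cells, was counted at 1.94 and 1.64 CPM in Lenti-GFP and 2.00 and 2.49 CPM in Lenti-AS. The nearest samples of the groups were 0.0578 CPM apart, and the 95% interval of the log2 fold change of 0.33 ran from -0.20 to 0.85. That fold change was 0.16 without Lenti-AS 2 and 0.48 without Lenti-AS 1.

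Hif1a and the hypoxia genes gave no common direction, with 2 of the 5 measured genes above 0 and 3 below in fitted log2 fold change. Hif1a, the oxygen-regulated subunit of HIF-1, had 419 and 442 CPM in Lenti-GFP and 409 and 434 CPM in Lenti-AS, and the groups overlapped. Its log2 fold change was -0.030, and the 95% interval from -0.18 to 0.12 lay within 1.3-fold (edgeR adjusted p = 0.800). HIF-1 alpha is controlled mostly through the breakdown of the protein, which these counts do not measure. Vegfa, the angiogenic growth factor, had 59.0 and 45.6 CPM in Lenti-GFP and 48.2 and 63.4 CPM in Lenti-AS. The replicates of each group were further apart than the group means, and its log2 fold change of 0.094 went from -0.12 without Lenti-AS 2 to 0.30 without Lenti-GFP 1.

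Bnip3, a mitophagy receptor, had 22.1 and 22.5 CPM in Lenti-GFP and 24.4 and 18.0 CPM in Lenti-AS, with the Lenti-AS samples on either side of the controls. Adm, the peptide adrenomedullin, had 0.236 and 0.169 CPM in Lenti-GFP and 0.297 and 0.239 CPM in Lenti-AS, from only 16 to 26 counts per sample. The groups were 0.00378 CPM apart, and its 95% interval from -0.59 to 1.41 on the log2 scale is too wide to tell a change from none at this depth. Thus Egln3 was the only hypoxia gene of the 5 with an unadjusted p under 0.05.

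**Figure D3:**
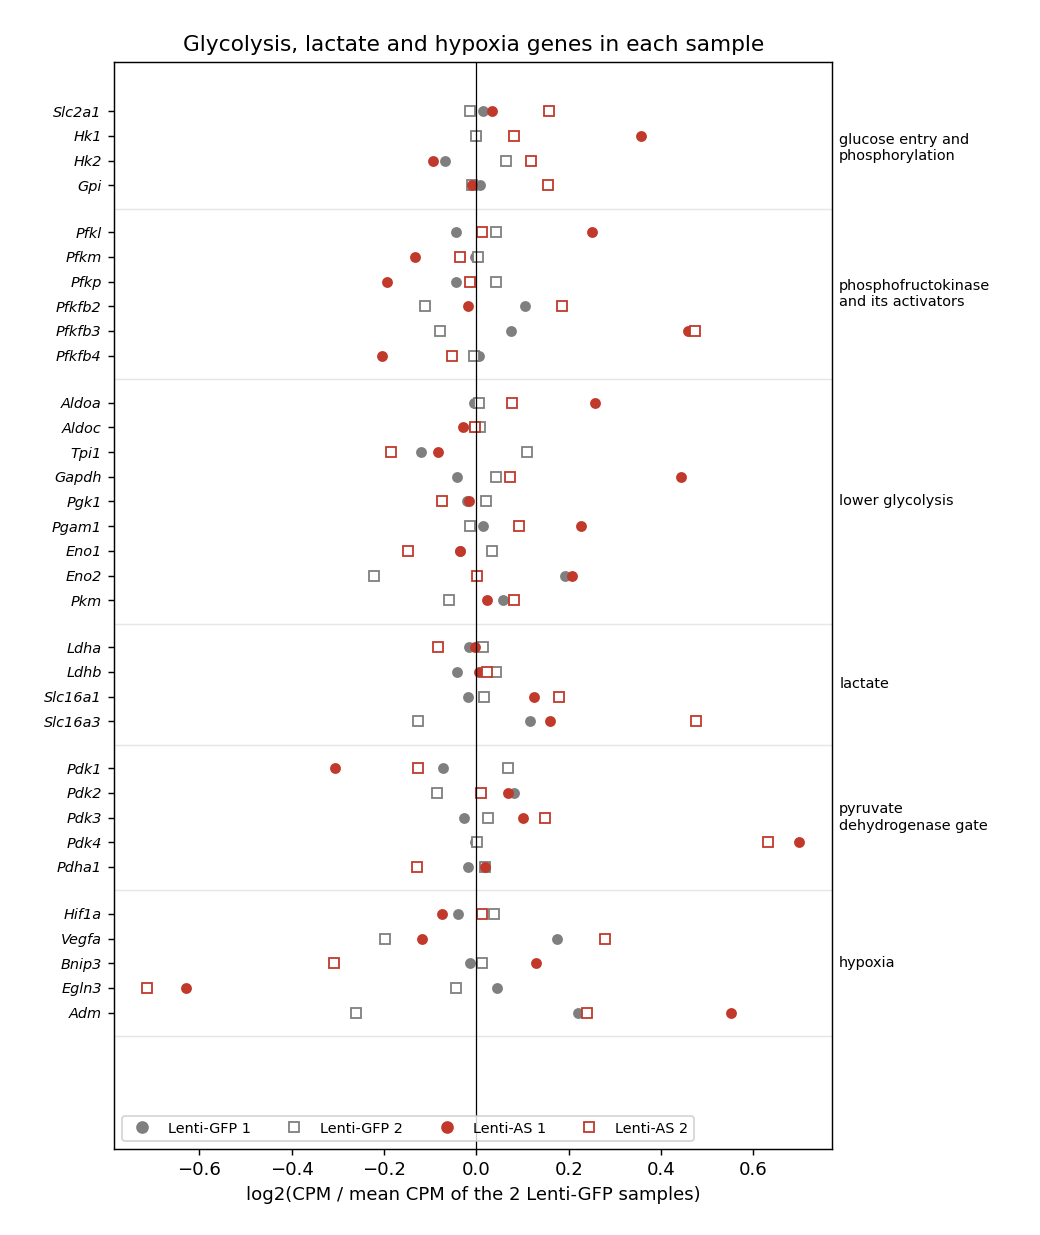
Each row is a member and each point a sample, as log2 of its CPM over the mean CPM of the Lenti-GFP samples (filled, replicate 1; open, replicate 2). For Pdk4 and Pfkfb3 both Lenti-AS points lie to the right and for Egln3 both lie to the left, while for Gapdh, Hk1, Bnip3 and Vegfa the Lenti-AS points lie apart from each other.

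Many members differed more between the Lenti-AS samples than between the groups. In 24 of the 33 members the gap between Lenti-AS 1 and Lenti-AS 2 was larger than the gap between the group means, as it was in 50.2% of all genes tested. Lenti-AS 1 was above Lenti-AS 2 in 7 of the 9 enzymes of lower glycolysis, with log2 ratios up to 0.37 for Gapdh, and in 1 of the 4 genes of glucose entry, where Slc2a1, Hk2 and Gpi had log2 ratios of -0.13, -0.21 and -0.16. Over all genes tested Lenti-AS 1 was above in 50.7%. The largest gaps were those of Bnip3 (log2 ratio 0.44) and Vegfa (-0.40). Pdk4 and Pfkfb3 had gaps of 0.069 and -0.020 and Egln3 one of 0.087, each smaller than its difference between the groups.

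**Figure D4:**
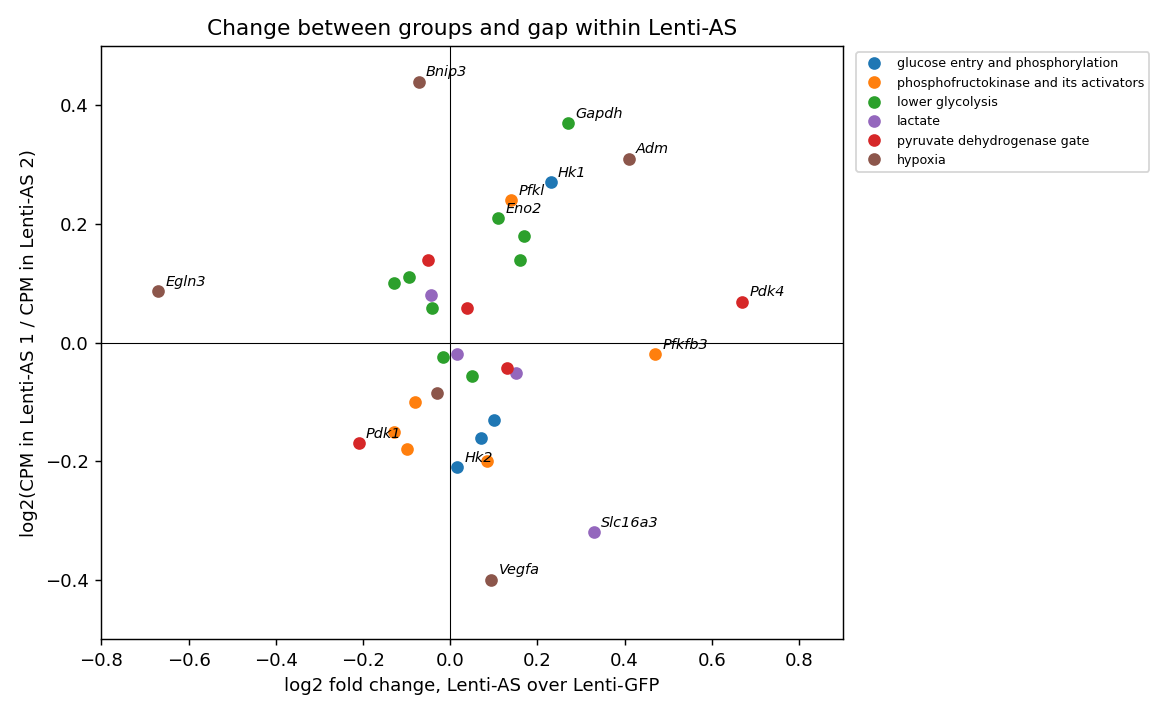
Log2 fold change between the groups (horizontal) against the log2 ratio of the CPM of Lenti-AS 1 to that of Lenti-AS 2 (vertical), one point per member, coloured by role. Pdk4, Pfkfb3 and Egln3 lie far from the vertical zero line and near the horizontal one, and Gapdh, Bnip3 and Vegfa have the largest gaps between replicates.

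Isozymes of a step can shift against each other without a change in their sum, and the ratio of their counts within a sample does not depend on the scaling of the library. For 7 pairs the log2 ratio was compared by an exact permutation test (two-sided), which with 2 samples against 2 cannot give a p under 0.333, and the adjusted p over the 7 pairs was 0.667 for each. The plain count ratio of Aldoc over Aldoa was 0.395 and 0.398 in Lenti-GFP and 0.326 and 0.376 in Lenti-AS, lower in both Lenti-AS samples. The log2 difference of -0.18 was -0.078 without Lenti-AS 1 and -0.28 without Lenti-AS 2. Pfkp over Pfkl was 0.593 and 0.594 in Lenti-GFP and 0.436 and 0.582 in Lenti-AS, and Pfkm over Pfkl was 1.87 and 1.76 against 1.39 and 1.76. In both of these pairs Lenti-AS 1 carried the difference, and without it the log2 differences of -0.24 and -0.21 shrank to -0.027 and -0.045. Hk2 over Hk1 was 1.31 and 1.43 in Lenti-GFP and 1.00 and 1.40 in Lenti-AS, with overlapping groups. Ldhb over Ldha was 0.165 and 0.171 against 0.169 and 0.181, and the pairs Eno2 with Eno1 and Slc16a3 with Slc16a1 overlapped too.

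Further genes of the neighbouring pathways were grouped by role. They were looked up under 110 symbols, some of them alternative symbols of the same gene, and 103 have a row and 91 were tested. Of those tested, edgeR called 1 higher and 1 lower, beside 1.31% and 0.667% of all genes tested, which is about the share of the whole table. Both were among the 31 tested genes of the wider hypoxia list. Plod2, a lysyl hydroxylase that modifies collagen, fell from 203 and 215 CPM in Lenti-GFP to 154 and 149 CPM in Lenti-AS (log2 scale -0.46, SE 0.0569, edgeR adjusted p = 0.0270). Hmox1, which encodes the haem-degrading enzyme heme oxygenase 1 and also answers to oxidative stress, rose from 23.0 and 25.0 CPM to 36.3 and 36.7 CPM (log2 scale 0.60 ± 0.0706 SE, edgeR adjusted p = 0.0252). The called genes of this list thus went in opposite directions, and the median log2 fold change over its 31 genes was -0.00021. Without Lenti-GFP 1 or Lenti-GFP 2 neither gene was called, while the log2 fold changes stayed between -0.50 and -0.42 for Plod2 and between 0.55 and 0.67 for Hmox1 whichever sample was left out.

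The other lists held 0 called genes by edgeR, and the gene with the smallest p in each is given here. Among 19 tested isoforms and transporters it was Emb, embigin, a partner protein of monocarboxylate transporters, with 15.6 and 16.1 CPM in Lenti-GFP and 19.0 and 18.7 CPM in Lenti-AS (edgeR adjusted p = 0.138). Among 10 genes of pyruvate entry into mitochondria it was Dld, the E3 subunit shared by pyruvate dehydrogenase and related complexes, with 289 and 283 CPM against 257 and 239 CPM (edgeR adjusted p = 0.131). Among 16 glycogen genes it was the branching enzyme Gbe1, with 54.6 and 57.1 CPM against 45.7 and 43.9 CPM (edgeR adjusted p = 0.0813).

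In these 3 genes, which were picked for their small p, the groups did not overlap. Of all genes tested, 27.7% were separated upward and 27.2% downward. Among 11 genes of the pentose phosphate pathway the smallest p belonged to the transketolase-like gene Tktl1, with 3.44 and 3.50 CPM in Lenti-GFP and 2.02 and 2.22 CPM in Lenti-AS. Its log2 fold change was -0.71, with an edgeR adjusted p = 0.0946 and of 0.0334 from DESeq2, which called it lower. Of the 4 tested genes of gluconeogenesis it was G6pc3, the ubiquitous glucose 6-phosphatase, with 30.1 and 29.5 CPM against 33.9 and 35.8 CPM (edgeR adjusted p = 0.137). At an unadjusted p under 0.05 edgeR had 12 of the 91 genes higher and 12 lower, near the shares of all genes given above, and DESeq2 called 2 higher and 2 lower, beside 4.86% and 1.39% of all genes.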

How the data were processed

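Counts per gene were deposited by the authors for 4 samples. The paper's methods name hisat2 and the submitters' processing notes GSNAP for the alignment to rn6, with featureCounts over RefSeq exons. Versions, the strand setting and the handling of reads with several matches are not given in the sources used here. One repeated header row was dropped.

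A minimum of 10 counts in 2 or more samples left 12446 genes, which were compared by edgeR 4.0.16 under R 4.3.3 (TMM factors, glmQLFit with default settings, glmQLFTest, no replicate term), checked on simulated data, and 95% intervals were computed from the fitted standard error. The cut-offs are those of the study, which applied them with DESeq2. Alternatives were DESeq2 1.42.0, limma-voom (limma 3.58.1), other scalings, filters and fits, a replicate block and leaving out each sample. The members and gene lists were chosen with earlier results of these data known. Values in every sample were given for members that were called, had an unadjusted p under 0.05 or were separated at 1.2-fold or more, and for Gapdh, Hif1a, Slc2a1, Ldha and Vegfa. For further genes, called ones were named, or else the smallest p of a list. Other genes were described by role. No rn6 annotation was used, so levels were not compared between genes. Promoters were matched by symbol to RefSeq (GRCr8).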

Additional observations from a re-analysis of the deposited data

How the results depend on the processing

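Pdk4 kept its call under the other scalings, filters and tests without a replicate term. The 1 member called higher became 2 with DESeq2 and 2 with the likelihood ratio test, and 0 with the replicate block. Leaving out one sample gave 0 to 3 members higher and 0 to 1 lower, and 0 to 8 further pathway genes higher and 0 to 3 lower. The further pathway genes called were 2 higher and 2 lower with DESeq2, 2 lower with the likelihood ratio test, and 0 higher and 0 lower with the replicate block. No label ties a replicate number to a culture or day, and the deviations of samples with the same number had a correlation of -0.0176 over genes, so there is no sign of pairing. With the replicate block the unadjusted p of Pdk4 was 0.00227 and its adjusted p 0.105 in edgeR, the adjusted p of Hmox1 was 0.0797 and that of Plod2 0.0877, and 3 genes of the whole table were called higher and 14 lower, in a fit that leaves fewer residual degrees of freedom. Without Lenti-GFP 1 or Lenti-GFP 2, edgeR called 0 genes higher and 1 lower in the whole table. In the fits that left out a sample, the lone sample of its group is assumed to vary like the other group.

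The median log2 fold change of the members was 0.05. It became 0.060 under upper-quartile scaling, 0.081 under library totals and -0.0071 to 0.10 with one sample left out. Library totals moved the median of all genes to 0.039. Hif1a changed sign with library totals (0.0022) and with one sample left out (-0.073 to 0.012). Vegfa changed sign only with one sample left out (-0.12 to 0.30). So did the differences between the groups in the log2 ratios of Hk2 to Hk1 (-0.45 to 0.04) and Eno2 to Eno1 (-0.031 to 0.46). None of these was called, and the cause was not tested. Counts were fewest for Adm, at 16 to 26 per sample.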

Other observations

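Several further genes of the wider hypoxia list are given here as values, chosen after those values were seen, and 3 of them are collagen hydroxylases like Plod2. Plod1 had 249 and 263 CPM in Lenti-GFP and 203 and 208 CPM in Lenti-AS (edgeR adjusted p = 0.0543). P4ha2, a prolyl hydroxylase subunit, had 101 and 103 CPM against 76.3 and 84.2 CPM (edgeR adjusted p = 0.0755), and P4ha1 had 329 and 342 CPM against 309 and 288 CPM (edgeR adjusted p = 0.187). In each of them both Lenti-AS samples were below both Lenti-GFP samples, as in 27.2% of all genes tested, and none of these 3 was called. Mif, a cytokine gene, and the mTOR inhibitor gene Ddit4 were not called by edgeR either, with at most 77.7 CPM in Lenti-GFP against 101 and 95.4 CPM in Lenti-AS and with 125 and 142 CPM against 198 and 158 CPM (edgeR adjusted p = 0.0576 and 0.136). DESeq2 called Ddit4 higher (adjusted p = 0.0116). The DESeq2 adjusted p was smaller for Plod1 (0.000134), Mif (0.000158) and P4ha2 (0.000819), which were not called because their fold changes were under 1.3. For P4ha1 the DESeq2 adjusted p was 0.0996. Epas1 had the largest fitted log2 fold change of the list, 1.0, and was not called (edgeR adjusted p = 0.261). It had 11.3 and 11.7 CPM in Lenti-GFP and 34.5 and 11.7 CPM in Lenti-AS, so that 1 library alone was high.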
